A study of Mus musculus with 2 samples.

Results

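Lgals3bp, Pml, Tor3a, Slfn8, Xaf1 and Tbk1 are 6 genes linked to the interferon response, and their RNA was compared between 2 mouse mesoangioblast clones, D351 and D16. They are 6 of 5928 named genes on the array, and the genes were taken by name, with every probe set annotated to a single one of them. Each of the 6 had 1 probe set, a group of short probes for one transcript that is summarised into 1 intensity. The genes were chosen because of their ratios on these same 2 arrays, so those ratios are given as a description and carry no test.

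Mesoangioblasts are vessel-associated progenitor cells of the mesoderm. Both clones came from the dorsal aorta of C57BL6 embryos at embryonic day 9.5, explanted and then cloned by limiting dilution over embryonic fibroblasts whose growth had been stopped with Mitomycin C, and both were then expanded on gelatin. The labels name no treatment and no interferon exposure for either clone. Total RNA of each clone was hybridised to 1 array (array C of the murine U74 series by Affymetrix), and a difference between the clones therefore cannot be separated from a difference between 2 single cultures or 2 single arrays.

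Interferons are cytokines that cells release on sensing viral nucleic acids. Sensors and their adaptors activate the kinase TBK1, which phosphorylates the transcription factor IRF3 and so switches on interferon genes. Secreted interferon binds receptors coupled to JAK kinases and STAT proteins, and these raise the transcription of many interferon-induced genes. Tbk1 belongs to the first step, and Lgals3bp, Pml, Tor3a, Slfn8 and Xaf1 are counted among the induced genes or their families.

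An intensity at or below 6.4, the median of all values of both arrays, was called dim and raised to 6.4 before log2 was taken. A gene was measured when it was above 6.4 in at least 1 clone, which held for 3934 genes. Ratios are D351 over D16, and a ratio with 1 dim value is a lower bound, written "at least". The 19 bacterial and yeast control probe sets, which match no mouse transcript, reached 11.2 over 38 values, and this range serves as a guide to background. These 19 are the negative controls named below. Some other control probe sets, with names ending in st, read higher, up to 55.2 in D351 and 44.8 in D16. They were not counted in this range, so it may understate background.

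The 6 genes did not move together. By the 2-fold rule 4 were higher in D351 (Lgals3bp, Pml, Tor3a and Slfn8), Xaf1 was far lower in D351, and Tbk1, with a lower bound that did not reach 2-fold, was not called. Over all 3934 measured genes, 10.3% passed 2-fold towards D351 and 10.2% towards D16. Because the ratios chose the genes, nothing is read from the share of the 6 that passed. Of the 12 values of these genes, 6 were no higher than the negative controls reached, and Lgals3bp was the 1 gene above that range on both arrays.

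**Figure D1:**
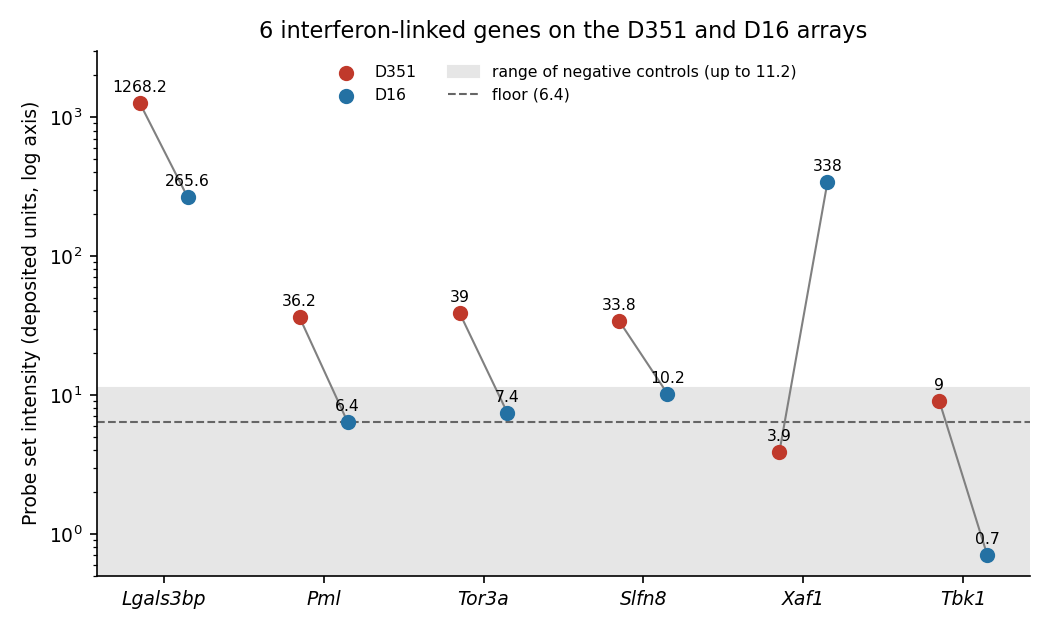
Intensity of each of the 6 genes on the D351 array (red, left point of each pair) and the D16 array (blue, right point), on a log axis, with 1 array per clone and no error bars. The dashed line is the floor of 6.4 and the grey band the range of the negative controls, up to 11.2; Lgals3bp lies above the band in both clones, Xaf1 above it in D16 alone and Tbk1 inside it in both.

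Among the effectors, Lgals3bp codes for a secreted glycoprotein that binds galectin-3 and the cell matrix. Its intensity was 1268.2 in D351 and 265.6 in D16, a log2 ratio of 2.26 or 4.77-fold. Both values were above every negative control value, so the ratio rests on measured signal in both clones. In order of ratio it was number 79 from the D351 end of the 3934 measured genes. Its probe set, 167234_s_at, has the mark s, which denotes probes that other transcripts can share.

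Pml codes for the protein that organises PML nuclear bodies, structures that gather SUMO-modified proteins. Its probe set read 36.2 in D351 and 6.4 in D16, a ratio of at least 5.66, and the D16 value was exactly at the floor. Of the 38 negative control values, 8 were as high as the D16 value and 0 as high as the D351 value. The probe set, 166786_i_at, carries the mark i, for an incomplete set of probes.

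Tor3a codes for a torsin, an ATPase of the endoplasmic reticulum. It stood at 39.0 in D351 and 7.4 in D16, 5.27-fold higher in D351 (log2 ratio 2.40). Slfn8, of a gene family known in mouse for restraining the growth of T cells, stood at 33.8 in D351 and 10.2 in D16, 3.31-fold higher in D351 (log2 ratio 1.73). Both genes had probe sets without a mark, 129266_at and 136580_at. In both, the D351 value was above all negative controls and the D16 value was not, so the size of these ratios depends on where background is set. Both D351 values, and that of Pml, were below the 55.2 that a control probe set ending in st reached in D351.

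Xaf1 codes for a zinc finger protein that binds the caspase inhibitor XIAP and counters it, and it is known as an interferon-induced gene. It went against the other effectors, with an intensity of 3.9 in D351 and 338 in D16. It was dim in D351, where 11 of 38 negative control values were as high, and it was at least 52.8-fold lower in D351 than in D16 (log2 ratio -5.72 or lower). This was the lowest of the 3934 ratios. Its probe set, 129005_at, has no mark.

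Tbk1, the kinase upstream of interferon production, read 9.0 in D351 and 0.7 in D16. Neither value was above the highest negative control, and 2 of 38 control values were as high as the D351 one. The ratio was at least 1.41, a bound that does not settle whether 2-fold was passed. The probe set, 170999_r_at, carries the mark r, for relaxed probe selection. These arrays therefore gave no usable level of Tbk1 in either clone, and "opposite directions" describes 5 of the genes, 4 against Xaf1.

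**Figure D2:**
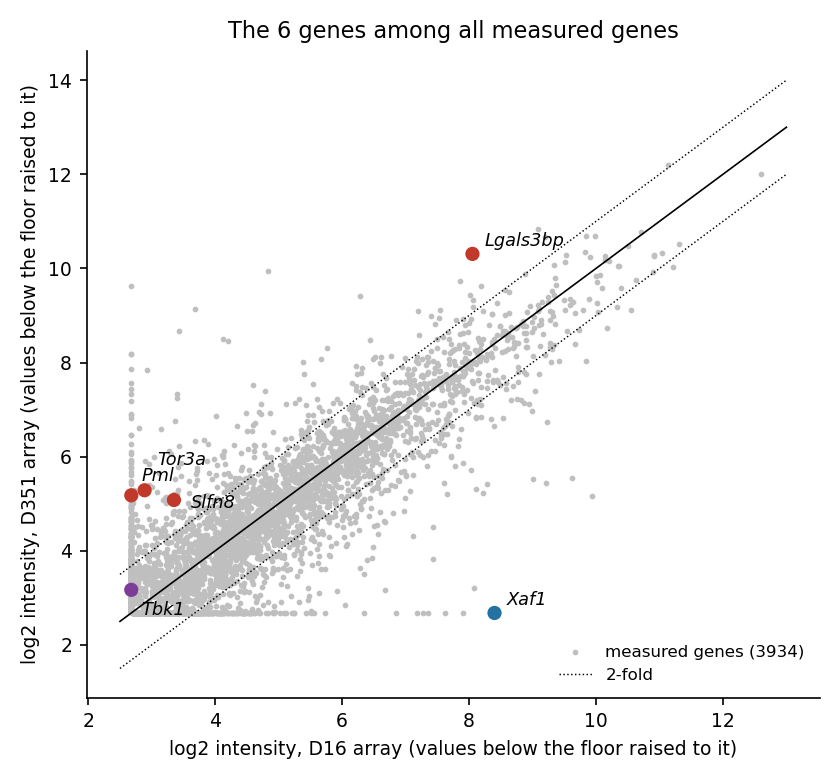
Log2 intensity of 3934 measured genes in D351 (vertical axis) against D16 (horizontal axis), values below the floor raised to it; the solid line marks equal values and the dotted lines 2-fold. Lgals3bp is the bright gene above the lines, Pml, Tor3a and Slfn8 lie near the D16 floor, Xaf1 lies on the D351 floor and Tbk1 in the low corner.

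With 1 probe set per gene, no second reading of the 6 exists on this array. The other genes show how far a second reading can differ. Over 409 genes with several probe sets above the floor on both arrays, the 2 brightest probe sets of a gene gave log2 ratios that differed with an SD of 0.68 per probe set. Among genes at least as far from 0 as Slfn8, 49 had a second measured probe set. That second reading had the same sign in 35 of the 49. It passed 2-fold with the same sign in 18 and with the other sign in 1. The hybridisation controls are bacterial and phage transcripts added to each sample. Their median was 1.59-fold higher in D16, so each direction is relative to the mean of the array. Scaling to them moves ratios towards D351 by about 0.67 in log2. The directions of all 6 genes stayed, but that shift could turn neither genes already above 0 nor Xaf1 at -5.72 or lower.

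The start regions of the 4 genes past 2-fold that have an entry in the RefSeq promoter table (assembly GRCm38.p6) are printed here because interferon-induced genes are known to carry short response motifs near their starts. Each window runs 5′ to 3′ along the gene, from 250 bases before the start of the transcript to 50 after it. The letters GAAANNGAAA, the core of the interferon-stimulated response element, were searched on both strands. The shorter letters AANNGAAA, the core known for IRF proteins and contained in the longer motif, were searched in the same way and added after the sequences had been seen. Capitals mark every match. The Lgals3bp window is chr11:118401910-118402209, the Pml window chr9:58249737-58250036 and the Slfn8 window chr11:83020761-83021060, all on the minus strand, and the Xaf1 window is chr11:72301379-72301678 on the plus strand.
Lgals3bp: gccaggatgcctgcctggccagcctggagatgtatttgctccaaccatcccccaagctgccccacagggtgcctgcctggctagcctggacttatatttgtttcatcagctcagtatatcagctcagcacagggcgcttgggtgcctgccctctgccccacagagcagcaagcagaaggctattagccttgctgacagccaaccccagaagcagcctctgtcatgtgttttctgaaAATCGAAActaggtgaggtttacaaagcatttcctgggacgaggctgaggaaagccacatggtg
Pml: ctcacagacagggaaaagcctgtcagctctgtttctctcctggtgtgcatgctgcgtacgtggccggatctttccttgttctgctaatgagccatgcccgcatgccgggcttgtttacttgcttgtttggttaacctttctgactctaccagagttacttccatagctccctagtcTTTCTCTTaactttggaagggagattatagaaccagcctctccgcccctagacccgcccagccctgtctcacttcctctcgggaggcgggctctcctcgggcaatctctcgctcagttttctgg
Slfn8: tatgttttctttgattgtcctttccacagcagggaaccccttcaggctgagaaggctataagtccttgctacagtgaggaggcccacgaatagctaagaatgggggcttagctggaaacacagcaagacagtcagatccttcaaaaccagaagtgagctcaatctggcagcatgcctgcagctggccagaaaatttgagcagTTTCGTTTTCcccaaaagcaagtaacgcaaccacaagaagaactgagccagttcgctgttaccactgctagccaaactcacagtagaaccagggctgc
Xaf1: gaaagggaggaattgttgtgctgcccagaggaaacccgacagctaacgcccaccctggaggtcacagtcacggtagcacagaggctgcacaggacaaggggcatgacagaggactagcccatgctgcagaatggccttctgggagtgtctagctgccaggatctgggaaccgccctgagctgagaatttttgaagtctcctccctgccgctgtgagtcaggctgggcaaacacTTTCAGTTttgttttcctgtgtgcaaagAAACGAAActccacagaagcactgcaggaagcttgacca

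Slfn8 was the 1 gene of the 5 with a window to hold the longer motif, as TTTCGTTTTC on the gene strand, 48 to 39 bases before the start. Its other listed start lies downstream and shares 212 bases of the window, and the same match lies 136 bases before that start. Of all 32851 windows in the table, 3.44% held this motif. The shorter core was found in Lgals3bp (14 bases before the start), Pml (74 bases before), Slfn8 (within the longer match) and Xaf1 (17 bases before, and again at base 12 after the start), and 23.9% of all windows held it. Tbk1 had neither motif in its window. The shorter core was thus present in genes of both directions. A match is a string of letters in this window and was not shown to be a site.

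The rest of the interferon pathway did not follow the 4 genes as a whole. Lists of 6 roles, from sensing to antigen presentation, named 346 genes, of which 75 were on the array and 59 measured. With the 6 genes left out, 53 remained, of which 6 (11.3%) passed 2-fold towards D351 and 3 (5.66%) towards D16, against 10.3% and 10.2% of all measured genes. Their median log2 ratio was 0.054, against -0.022 over all measured genes. With the 6 included, the counts were 10 and 4. Scaling to the hybridisation controls, which moved the median of all measured genes to 0.59, gave 17 of 54 towards D351 and 0 towards D16 without the 6 genes, against 27.6% and 3.64% of all measured genes, and a median of 0.57.

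Among the sensors of nucleic acids, 3 of 11 measured genes were higher in D351 and 1 lower, against 10.3% and 10.2% of all measured genes. The median was -0.17, or 0.50 when scaled to the hybridisation controls, where it was 0.59 over all measured genes. Ifih1, the sensor of long double-stranded RNA, stood at 21.2 in D351 and 10.5 in D16, 2.02-fold. Mavs, the mitochondrial adaptor of that sensor, stood at 17.3 in D351 and 8.4 in D16, 2.06-fold. Tirap, an adaptor of Toll-like receptors, stood at 15.7 in D351 and was dim in D16, at least 2.45-fold. In all 3 the D16 value was no higher than the negative controls reached. The ratios of Ifih1 and Mavs were near the 2-fold line, while that of Tirap is a lower bound. The exception was Polr3e, a subunit of RNA polymerase III, at 92.2 in D351 and 186.8 in D16, 2.03-fold lower in D351, with its other probe set at a log2 ratio of -0.81. It was not past 2-fold with lowess centring, scaling to the hybridisation controls, a pseudocount or the mean over its probe sets.

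In the arm around TBK1, 2 of 13 measured genes were higher in D351 and 0 lower, against 10.3% and 10.2% of all measured genes. The median was 0.49, which is the bound of Tbk1 itself. Scaled to the hybridisation controls, 7 of 13 were higher in D351 and 0 lower, with a median of 1.06. Over all measured genes that scaling gave 27.6% higher and 3.64% lower in D351, with a median of 0.59. Irf7, the transcription factor that amplifies interferon production and is itself interferon-induced, stood at 235.7 in D351 and 79.1 in D16, 2.98-fold higher in D351. Both values were far above the negative controls, although the probe set has the mark f, for a family of like sequences. Tradd, an adaptor of the TNF receptor, stood at 55.0 in D351 and 27.4 in D16, 2.01-fold. It was not past 2-fold with quantile normalisation or a pseudocount.

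Of the receptor and JAK-STAT genes only 3 were measured. Jak1, the kinase bound to the receptors of both interferon types, stood at 121.6 in D351 and 252.7 in D16, 2.08-fold lower in D351, by a probe set with the mark s. It was under 2-fold when scaled to the hybridisation controls. None of 5 measured negative regulators passed 2-fold, and all 5 were below 0, with a median of -0.20. Scaled to the hybridisation controls, where all measured genes had a median of 0.59, these 5 had one of 0.47, with 1 below 0. The brightest, Trim28, had a log2 ratio of -0.55 and Ptpn2, a phosphatase of JAK kinases, one of -0.091. Another probe set of Trim28 lay at 0.28.

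Of 25 measured effectors, 7 passed 2-fold towards D351 and 2 towards D16, against 10.3% and 10.2% of all measured genes. The other 16 were not called, and the list median was 0.19. Lgals3bp, Pml, Tor3a and Slfn8 among the 7, and Xaf1 among the 2, were chosen by their ratios, so nothing is read from these counts. Scaled to the hybridisation controls, 11 of 26 passed towards D351 and 1 towards D16, against 27.6% and 3.64% of all measured genes. The list median was then 0.80, against 0.59. With a floor of 1.8, the 25th percentile of all values, 7 of 32 passed towards D351 and 6 towards D16, against 14.4% and 15.5%. The 7 were Lgals3bp, Pml, Tor3a, Slfn8, Irf7, Ifih1 and, named after its values were seen, Adar, an RNA-editing enzyme, at 25.9 in D351 and 12.1 in D16. Beside Xaf1 the other lower gene was Plscr1, a phospholipid scramblase, dim in D351 and at 13.3 in D16, at least 2.08-fold. Another 9 effectors on the array were dim in both clones. In antigen presentation none of 4 measured genes passed 2-fold; Rfx5, a factor for MHC class II genes, had a log2 ratio of -0.84, and Tap2, a peptide transporter subunit, 0.030.

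**Figure D3:**
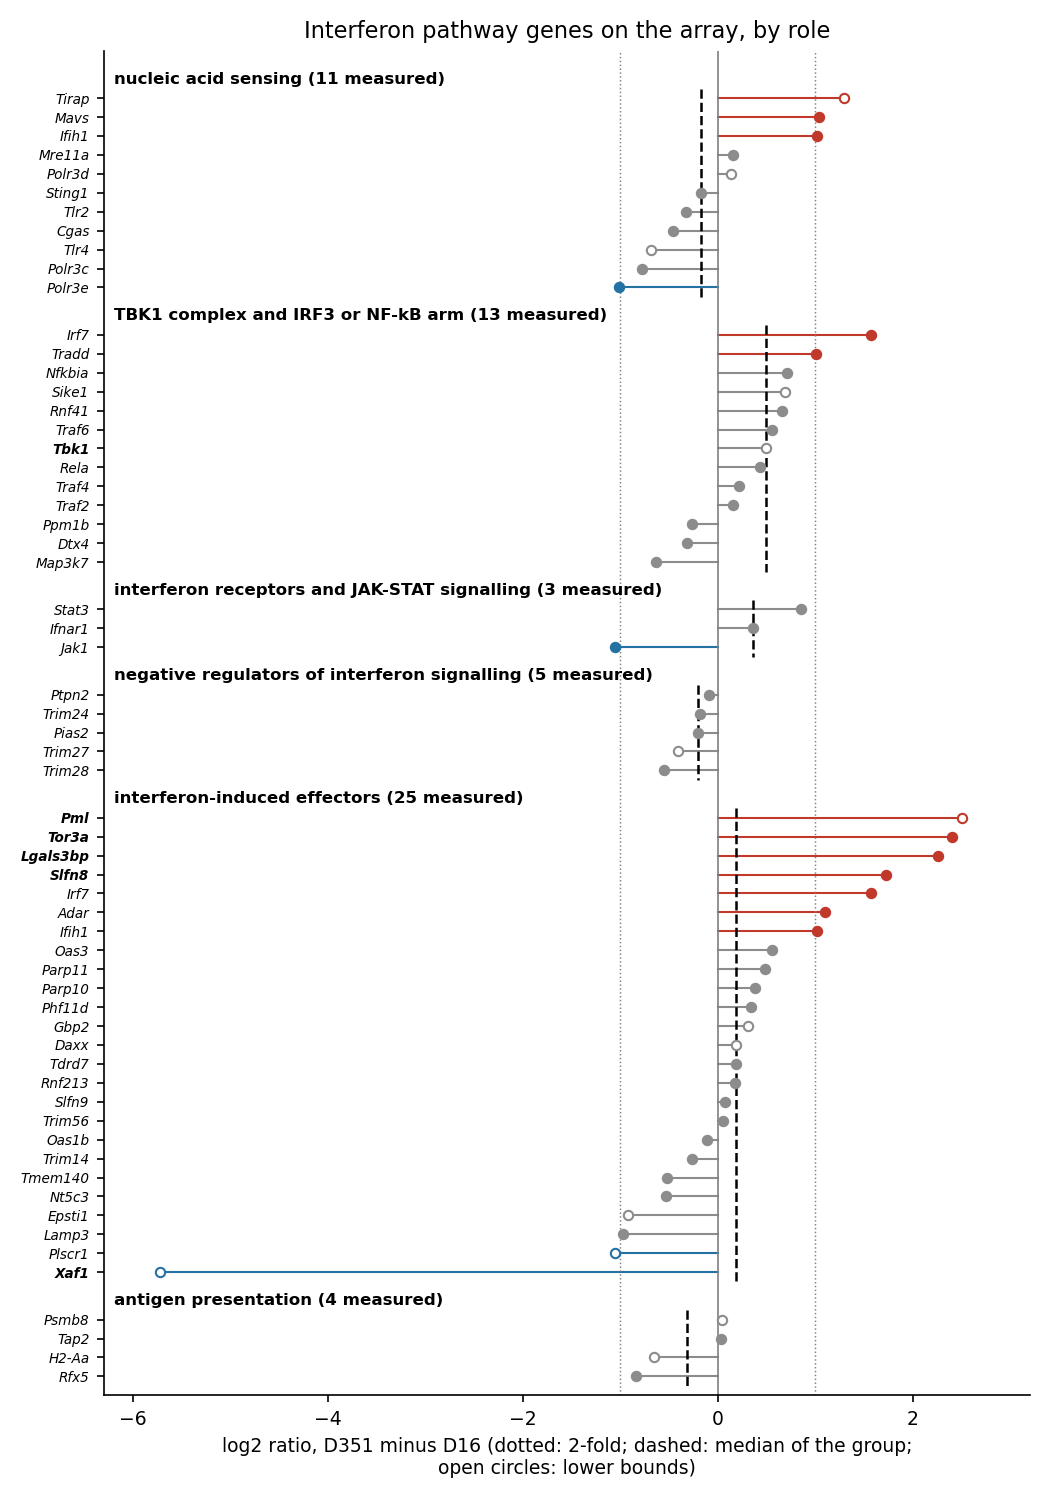
Log2 ratio, D351 minus D16, of each measured interferon pathway gene, grouped by role, with the 6 genes in bold; red and blue lines pass 2-fold (dotted lines), open circles are lower bounds and dashed lines are group medians. Pml, Tor3a and Lgals3bp are the furthest towards D351 and Xaf1 stands alone at -5.72, while most genes lie between the 2-fold lines.

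The relatives and partners of the 6 genes mostly did not share their ratios. Slfn9, which neighbours Slfn8 and resembles it, stood at 67.5 in D351 and 64.1 in D16, and Slfn5 was dim in both clones. Since Slfn8 and Slfn9 are close copies, how far their probe sets read each other cannot be said here. Tor1b, the other torsin on the array, was dim in both clones. Of 11 measured genes of PML bodies and the SUMO system, Pml alone passed 2-fold, and the list median was -0.011. Scaled to the hybridisation controls, 4 of 12 passed, all towards D351, and the median was 0.60. Over all measured genes that scaling gave 27.6% towards D351 and a median of 0.59.

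Of 9 measured genes of the apoptosis machinery, 0 passed 2-fold towards D351 and 2 towards D16, Xaf1 and Birc6. The shares of all measured genes were 10.3% and 10.2%. Scaled to the hybridisation controls, 3 of 9 passed towards D351, with Xaf1 alone towards D16, against 27.6% and 3.64% of all measured genes. Birc6, a large inhibitor of apoptosis, stood at 13.1 in D351 and 34.7 in D16, 2.65-fold lower in D351. Xiap, named here as the partner of Xaf1 and outside the naming rule, stood at 60.7 in D351 and 39.9 in D16, a log2 ratio of 0.61 and under 2-fold. Of 6 measured galectins and genes with scavenger receptor domains, Lgals3bp was higher in D351 and the ferritin receptor gene Scara5 lower, dim in D351 and at 163.7 in D16, at least 25.6-fold. Another probe set of Scara5 was dim in both clones.

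By position, Lgals3bp, Slfn8 and Xaf1 are on chromosome 11, Pml on 9, Tor3a on 1 and Tbk1 on 10. Chromosome 11 had 281 measured genes, of which 10.7% passed 2-fold towards D351 and 7.12% towards D16, with a median of 0.042. On chromosome 9 the shares were 13.8% towards D351 and 5.36% towards D16, on chromosome 10 they were 15.1% towards D351 and 4.39% towards D16, and on chromosome 1 they were 7.93% towards D351 and 9.69% towards D16. Of the 3 protein-coding genes on each side of each of the 6 genes in RefSeq order, 11 of 36 were on the array and 10 measured. Of these 10, 3 passed 2-fold towards D351 and 0 towards D16, against 10.3% and 10.2% of all measured genes. Nothing about position is read from counts this small. Stoml1, next to Pml, stood at 69.3 in D351 and 24.5 in D16 (2.83-fold), and Loxl1, the gene after it and a cross-linking enzyme of elastin, at 136.9 in D351 and 42.9 in D16 (3.19-fold). Engase, near Lgals3bp, stood at 29.4 in D351 and 13.2 in D16 (2.23-fold). None of the 6 neighbours of Xaf1 had a probe set annotated to it alone.

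The genes most like each of the 6 were those with the smallest Euclidean distance over the log2 intensities of both arrays. For Lgals3bp these were Mdm2 and Pik3r1, at distances of 0.60 and 0.70, and for Xaf1 they were Cyp2c55 and Fyb2, at 0.50 and 0.63. Pml had Gsg1 and Nkain4 within 0.074, Tor3a had Pde7b and Ckb within 0.13 and Slfn8 had Gdap1l1 and Plekhg4 within 0.14. Tbk1 lay at distance 0 from 3 genes, among them Slc25a3 and Snrpe, because all read 9.0 in D351 and were dim in D16. With 2 arrays, likeness means only similar brightness in each clone.

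Markers of other cells were set beside these ratios, and in bulk RNA fewer cells of a type and less RNA per cell cannot be told apart. Of 60 haematopoietic and immune markers 10 were on the array, with a summed intensity of 260.9 in D351 and 203.3 in D16. Of these, 5 were measured, none past 2-fold, with a median of 0.37. Scaled to the hybridisation controls, which took 27.6% of all measured genes past 2-fold towards D351, 3 of 6 of these markers passed. The brightest were Nkg7, of cytotoxic granules, at 148.0 in D351 and 102.1 in D16, and the platelet integrin gene Itga2b, at 49.9 in D351 and 38.7 in D16. The other probe sets of Nkg7 read 2.5 in D351 and 11 in D16 (log2 ratio of -0.78 or lower) and 35.2 in D351 and 30.1 in D16 (0.23), and with means over probe sets the list median was 0.045. The immune markers Lyz1, Fcgr1, Gzma, Coro1a and Vav1 were dim in both clones. The part of immune cells in the ratios was not tested.

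Embryonic fibroblast markers, the cell type of the feeder layer, were higher in D351, as were smooth muscle markers. Of 35 fibroblast markers listed, 7 were on the array, with a summed intensity of 2599 in D351 and 799.8 in D16. Col5a2 was the 1 dim in both clones. Of the 6 measured, 5 passed 2-fold towards D351 and 0 towards D16, against 10.3% and 10.2% of all measured genes. Their median was 1.72. The 5 included the microfibril gene Mfap5 (6.14-fold), Fgf10 (4.76-fold), the collagen gene Col5a1 (3.38-fold) and Loxl1, which is also the near neighbour of Pml. A further Fgf10 probe set was under 2-fold, at 28.6 in D351 and 17.9 in D16 (log2 ratio 0.68), and further probe sets of Mfap5 and Col5a1 were dim in both clones. Of 35 smooth muscle and mural markers listed, 12 were on the array, with a summed intensity of 6143 in D351 and 2569.4 in D16. Of the 11 measured, 8 passed 2-fold towards D351 and 1 towards D16, with a median of 1.10. Tpm1 (log2 ratio -0.39) and Csrp1 (-0.33) were also below 0. Another probe set of Pdlim7 lay at -0.46, against 1.10 for the brightest. Lmod1, a leiomodin of smooth muscle, was at least 45.0-fold higher and the integrin gene Itga8 8.74-fold, while the vessel growth factor gene Angpt1 was at least 4.09-fold lower in D351. Their part in the ratios of the 6 genes was not tested.

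Of 9 endothelial markers on the array 5 were measured, with Flt1, a VEGF receptor, at least 13.7-fold higher in D351 and Egfl7 at least 3.05-fold lower. Their summed intensity was 146.6 in D351 and 75.6 in D16. Flt1 alone, at 87.6 in D351 and 1.3 in D16, set the direction of that sum, which was 59.0 in D351 and 74.3 in D16 over the other 8, a sum added after the values were seen. Of 15 mesoangioblast markers only 3 were on the array. Itgb1 and Fgfr1 were above background in both clones with log2 ratios of 0.084 and -0.069, while Kdr, at 9.5 in D351 and 1.6 in D16, was below the highest negative control in both. The array could therefore check the labelled cell type only in small part.

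The ratios of the 6 genes were recomputed with other scalings and floors. With dim values raised to 11.2, the highest negative control, Pml was at least 3.23-fold, Tor3a at least 3.48-fold and Slfn8 at least 3.02-fold higher in D351, and Xaf1 at least 30.2-fold lower. With a floor of 20.7, the 75th percentile of all values, Pml, Tor3a and Slfn8 had lower bounds under 2-fold (at least 1.75-, 1.88- and 1.63-fold), which neither reach nor exclude it, while Lgals3bp kept its 4.77-fold ratio and Xaf1 was at least 16.3-fold lower in D351.

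**Figure D4:**
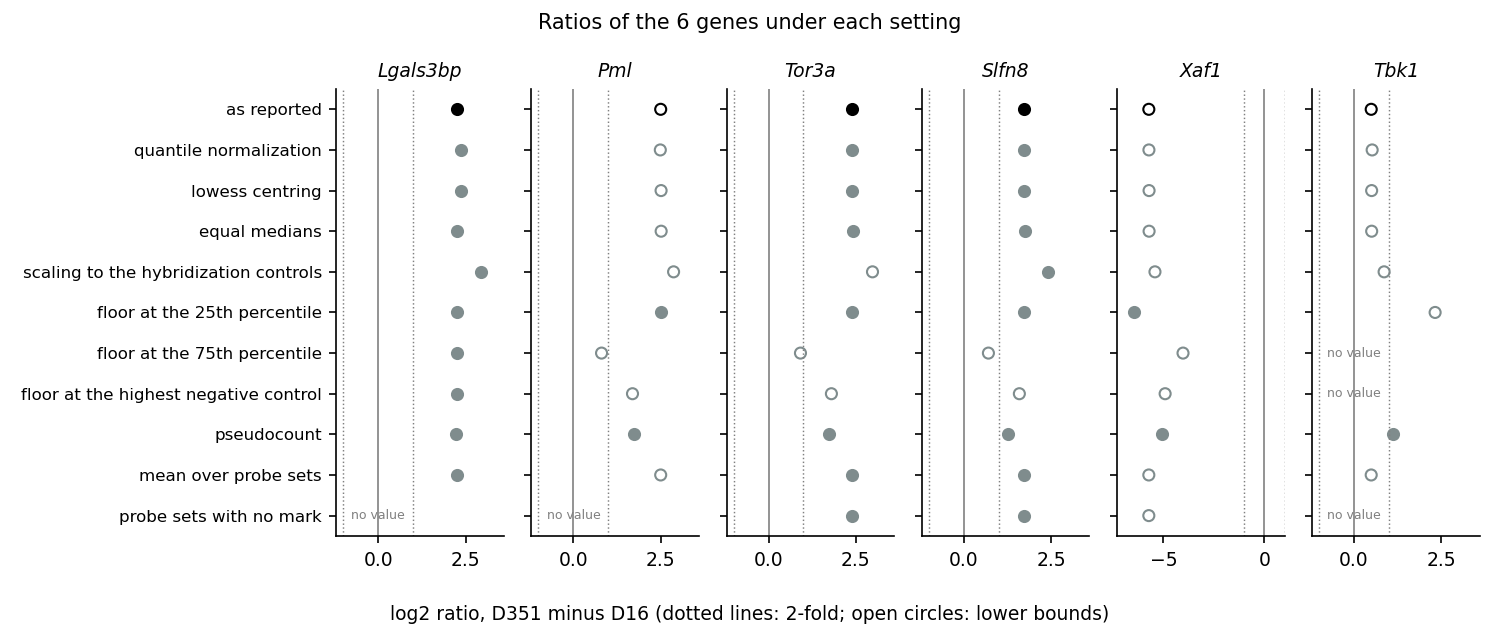
Log2 ratio, D351 minus D16, of each of the 6 genes as reported (black) and under 10 other settings (grey), with open circles for lower bounds and dotted lines at 2-fold. Lgals3bp lies between 2.23 and 2.93 and Xaf1 at -4.03 or lower wherever they have a value, while the lower bounds of Pml, Tor3a and Slfn8 lie inside the 2-fold lines with the floor at the 75th percentile.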

How the data were processed

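Total RNA of the mesoangioblast clones D351 and D16 was measured on 1 array each, so no test was possible and precision is limited by that number. The deposited table holds 1 linear intensity per probe set; how the authors computed these intensities is not given in the sources used here. Trimmed means (2% at each end) were 20.01 on both arrays, and values were used as deposited.

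After 66 control probe sets were set aside, 11868 remained, of which 7717 had 1 gene in the platform annotation, 150 several and 4001 none. RefSeq (GRCm38.p6) held 7677 of the 7717 gene identifiers. The brightest probe set represented a gene. Symbols, neighbours and promoter sequences came from RefSeq tables; Tor3a had no promoter entry.

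Named were the 6 genes, up to 4 genes past 2-fold per direction from each of 16 lists (else the 2 brightest) and the 2 genes most like each. The members, lists and alternatives were chosen with earlier results of these data known. The procedure was run on simulated arrays made from the D16 values, in which only bright probe sets were changed. That run does not bear on values near the floor, such as those of Pml, Tor3a, Slfn8 and Tbk1 in D16 or Xaf1 in D351. Tools were Python 3.11.15 with pandas 2.3.3 and numpy 2.4.6, statsmodels 0.14.6 for lowess, scipy 1.17.1 for trimmed means and matplotlib 3.10.9.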

Additional observations from a re-analysis of the deposited data

How the results depend on the processing

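No paired analysis was possible because each clone has 1 array. Alternatives were 4 other scalings, 3 other floors, a pseudocount, unmarked probe sets, means over probe sets and a 3-fold rule. A log2 ratio was taken to have moved when it differed by at least 0.68, the SD between probe sets of one gene. Scaling to the hybridisation controls shifts a ratio by slightly less than this SD. By this rule it could therefore not move a ratio of the 6 genes. No ratio of the 6 genes changed sign. A floor or a pseudocount cannot turn a sign, and with 1 probe set per gene a mean over probe sets cannot either. Lgals3bp ran from 2.23 to 2.93. With the floor at the 75th percentile (20.7), log2 ratios were bounds, at least 0.81 for Pml, 0.91 for Tor3a and 0.71 for Slfn8 and -4.03 or lower for Xaf1, and 1 gene was called past 2-fold towards D351. With the floor at the highest negative control (11.2) Pml came to at least 1.69 and Xaf1 to -4.92 or lower, and with the pseudocount Pml came to 1.73 and Tor3a to 1.72. With the floor at the 25th percentile (1.8) Xaf1 came to -6.44 and Tbk1 to at least 2.32, each with at least 1 value within the negative control range; Tbk1 also passed 2-fold with the pseudocount (1.12). Tbk1 had no value with the 2 higher floors, and Lgals3bp, Pml and Tbk1 none over unmarked probe sets, which left 2 genes past 2-fold towards D351. The count of pathway genes higher in D351 was 10 as reported, 21 scaled to the hybridisation controls, 3 with the 75th percentile floor, 5 over unmarked probe sets and 4 by the 3-fold rule. The count lower in D351 was 4 as reported, 1 scaled to the hybridisation controls, 10 with the 25th percentile floor, 2 with the pseudocount and 1 by the 3-fold rule. Scaling to the hybridisation controls moved the median of all measured genes to 0.59 and the shares past 2-fold to 27.6% higher and 3.64% lower in D351. These shifts follow from the construction of each floor or scaling.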

Other observations

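The manufacturer's control probe set named MurFAS, after the death receptor Fas, stood at 192.7 in D351 and 41.3 in D16, 4.67-fold higher in D351 and above the negative controls in both clones. Fas is known as a receptor whose gene interferon can raise, but the cause of this ratio was not tested. The control probe sets named for the cytokines IL2, IL4 and IL10 were dim in both clones. Of the measured interferon pathway genes with a promoter window, 9 of 46 (19.6%) held the letters GAAANNGAAA, against 3.99% of all genes in the table. Among those past 2-fold, 2 of 8 genes higher in D351 held them, Slfn8 among the 2, and 0 of 4 genes lower in D351 did. The shorter letters AANNGAAA were held by 22 of 46 (47.8%), against 26.7% of all genes, and by 5 of 8 higher and 2 of 4 lower. The lists were made of genes linked to interferon, so these shares say nothing about the clones. No difference between directions is read from counts this small.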
